A study of Canis lupus familiaris with 6 samples.

Results

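ISG15 and the enzymes that attach it to proteins and take it off again were read on 6 arrays of sorted MDCK cells, a line of dog kidney epithelium. The 6 genes were ISG15, UBA7, UBE2L6, HERC5, HERC6 and USP18, and their probes were all those that carry 1 of these symbols as gene name in the array design. The array holds 33841 gene names or identifiers in all, and the 6 genes had 8 of its 43603 non-control probes. UBA7 and HERC5 had 2 probes each and the other genes 1 each, and all 8 were among the 26621 probes tested, which are those the scanner software flagged as well above background on all arrays of at least 1 group.

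ISG15 is a small protein built like ubiquitin in tandem, and type I interferon is the signal best known to switch on its gene. It is joined to lysines of other proteins by a short enzyme chain: UBA7 activates it (E1), UBE2L6 carries it (E2), and a HERC ligase, HERC5 in humans and HERC6 in mice, passes it to the substrate (E3). USP18 cuts ISG15 off again and also dampens signalling at the interferon receptor, and free ISG15 can leave the cell and act on the integrin LFA-1 of leukocytes.

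In the single culture, cells carrying mCherry-β-catenin Δ131, which lacks 131 residues at its start, and tetracycline-inducible GFP-RasV12 were grown alone (3 arrays). In the mix culture, the same cells had 10 neighbours per RasV12 cell, and the neighbours carried mCherry-β-catenin Δ131 without RasV12 (3 arrays). The sorted cells of both groups thus share the truncated β-catenin, RasV12 and 24 h of tetracycline. The comparison asks what changes in β-cat ΔN/RasV12 cells when their neighbours are mostly β-cat ΔN cells in place of their own kind. It does not ask what Ras or β-catenin does within the sorted cells. The presence of β-cat ΔN neighbours and the loss of RasV12 neighbours cannot be told apart. GFP-positive cells were sorted before RNA was taken. Nothing in the labels says that replicates came from separate cultures, so p-values measure the spread between these samples, which may be technical. No animals and no untransformed cells entered the comparison.

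Signals are given as background-subtracted intensities in scanner units. Changes are mix culture minus single culture on the log2 scale, after each array was set to 0 at its 75th percentile, and a probe or gene is called when limma's adjusted p over all probes tested is under 0.05. Replicate 1 of each group lay on slide 1 and replicates 2 and 3 on slide 2, which was scanned at another resolution, so within-slide changes stand beside the pooled ones. Per array, 61.1% to 65.7% of spots were well above background. Of the kidney epithelial markers, 9 of 9 with a named probe were well above background on all 6 arrays, among them CDH1, EPCAM and KRT18. Of 8 leukocyte markers, 4 (CD14, CD3E and CD68 among them) were well above background on all 6 arrays while PTPRC, MS4A1 and LYZ were so on none, and the summed signal of the list was 266 to 389 units in single culture and 260 to 395 in mix culture. Of 9 fibroblast and endothelial markers, 4 (KDR, PDGFRB, PECAM1 and VWF) were above background on all arrays and COL3A1 and DCN on none, with sums of 942 to 2947 units in single and 862 to 3410 in mix culture. The part of such signals in the results was not tested. The genes of the introduced proteins did not pass the test: HRAS stood at -0.62 on the log2 scale (limma adjusted p = 0.608) and CTNNB1 at 0.26 (0.889), and these probes were not shown to read the introduced copies.

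The probe sequences below show which stretch of each transcript was read. They come from the scanner files, are written 5′ to 3′, and each has 60 bases. Of the ISG15 probe, only the last 30 bases are given, with the polyadenylation signal letters AATAAA in capitals. In the HERC5 probe that starts at base 3007 of its transcript and in the HERC6 probe, capitals mark the bases that are identical when the probes are aligned.
ISG15, end of the probe: accaagtatgggtAATAAAagttgacaaaa
UBA7, probe at base 2800: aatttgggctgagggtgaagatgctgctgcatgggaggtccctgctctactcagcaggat
UBA7, probe at base 562: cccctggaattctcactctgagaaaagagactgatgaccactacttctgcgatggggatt
UBE2L6: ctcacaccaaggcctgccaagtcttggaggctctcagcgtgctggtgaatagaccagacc
HERC5, probe at base 3007: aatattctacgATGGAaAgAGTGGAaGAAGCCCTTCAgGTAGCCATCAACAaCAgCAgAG
HERC5, probe at base 1735: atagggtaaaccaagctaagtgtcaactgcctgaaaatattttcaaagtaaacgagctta
HERC6: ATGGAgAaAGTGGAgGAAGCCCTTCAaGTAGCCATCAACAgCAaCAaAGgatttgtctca
USP18: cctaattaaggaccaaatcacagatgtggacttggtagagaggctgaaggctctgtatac

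All 6 genes read higher in mix culture, by 2.08-fold (UBE2L6) to 8.04-fold (HERC5) in the reported fit. On each of the 8 probes the lowest mix culture array lay above the highest single culture array, which held for 7.85% of all probes tested. The HERC5 probe at base 1735 met the filter through mix culture alone, so its difference is a description. ISG15, HERC5, HERC6 and USP18 rose past the test, so 4 of 6 genes were called, against 0.791% of gene names and identifiers called higher (0.815% of probes). UBA7 and UBE2L6 did not pass it without the slide in the fit, and passed it with the slide as a block. Over all probes tested the median log2 change was -0.05, and 42.0% of probes lay above 0.

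**Figure D1:**
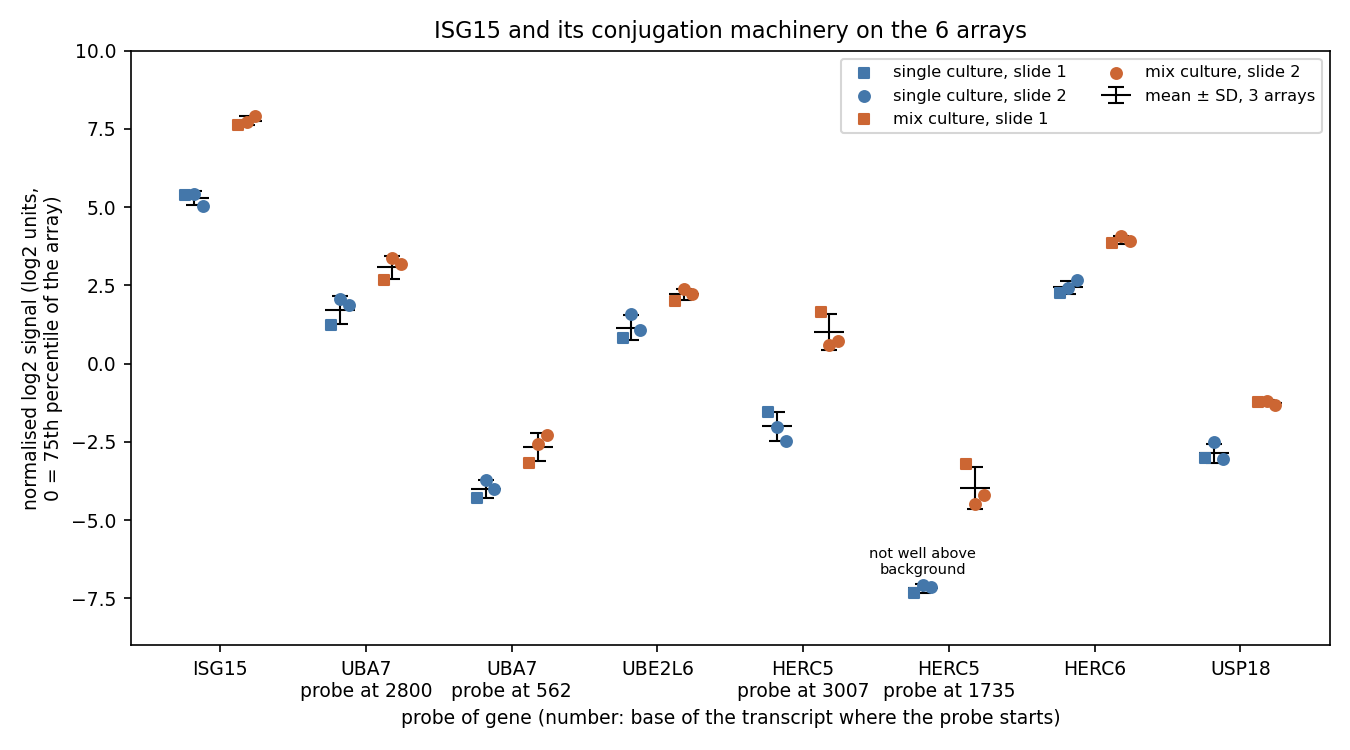
Normalised log2 signal of each probe of ISG15, UBA7, UBE2L6, HERC5, HERC6 and USP18 (0 is the 75th percentile of the array), with squares for slide 1, circles for slide 2, and bars for the mean and SD of 3 arrays a group. On every probe the 3 mix culture arrays lie above the 3 single culture arrays, and the HERC5 probe at base 1735 is not well above background in single culture. Heights of different probes are not comparable.

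ISG15, the modifier itself, gave the clearest rise. Its probe (transcript ENSCAFT00000030747, chr5:56237290-56237349, plus strand, CanFam3.1) had intensities of 8691, 7142 and 5658 in single culture and 46437, 37949 and 39043 in mix culture, for replicates 1, 2 and 3. The 2 groups were far apart, and no array of either came near the other group. On the normalised log2 scale the means were 5.29 ± 0.22 (SD, n = 3) and 7.76 ± 0.15 (SD, n = 3). The change was 2.47 on the log2 scale (SE 0.18, 95% interval 2.06 to 2.89), or 5.55-fold, with a limma adjusted p of 0.00163. It was 2.24 within slide 1 and 2.59 within slide 2. Among 9564 named genes, 41 had a larger log2 rise.

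A further probe lies beside it and was noticed only after its values were seen. It carries the identifier DR108024, and the design describes it as similar to the human gene under its older symbol G1P2. It stands 393 bases away (chr5:56236837-56236896), but its coordinates run along the minus strand, opposite to the ISG15 probe. Its intensities were 51.8, 43.2 and 31.3 in single culture and 348, 260 and 285 in mix culture. It changed by 2.78 in log2 units (SE 0.20, limma adjusted p = 0.00162), with 2.57 on slide 1 and 2.88 on slide 2. Whether it reads ISG15 RNA or a transcript of the opposite strand was not tested, so it is not counted as an ISG15 probe. Its sequence is shown because it marks what was read there.
DR108024: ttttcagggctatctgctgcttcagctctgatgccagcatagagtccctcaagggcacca

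UBA7, the E1 that activates ISG15, read higher on both of its probes by nearly the same factor. The probe at base 2800 (ENSCAFT00000017793, chr20:39468143-39468202) had intensities of 482, 698 and 627 in single culture and 1474, 1891 and 1472 in mix culture. Replicate 1, on slide 1, was the lowest array of its group in single culture, and in mix culture on the normalised scale. In log2 units the change was 1.36 (SE 0.28, 95% interval 0.69 to 2.03), or 2.57-fold, and the limma adjusted p was 0.117. Within slide 1 it was 1.43 and within slide 2 it was 1.33, and with the slide as a block the limma adjusted p was 0.000456.

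The UBA7 probe at base 562 (chr20:39461539-39461598) had intensities of 10.5, 12.6 and 10.8 in single culture and 26.0, 30.2 and 33.1 in mix culture. All 6 arrays were well above background, though close to the lowest signal that is (4.19 to 4.48 units). Here the change was 1.33 in log2 units (SE 0.27, limma adjusted p = 0.0998), and with the slide as a block the limma adjusted p was 0.00140. It moved with the background correction: under normexp the log2 change was 0.29.

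UBE2L6, the E2 that takes ISG15 over from UBA7, had the smallest change of the 6 genes in the reported fit, while under normexp it had 0.97 in log2 units and USP18 0.66. Its probe (ENSCAFT00000038474, chr18:38616521-38618446) spans 1926 bases of the genome with its 60 bases, so it is listed across a splice junction. Intensities were 359, 503 and 361 in single culture and 941, 943 and 761 in mix culture. The groups did not overlap, but single culture replicate 2 stood nearest to the mix arrays. In log2 units the change was 1.06 (SE 0.23, 95% interval 0.51 to 1.61), or 2.08-fold, with a limma adjusted p of 0.142. It was 1.21 on slide 1 and 0.98 on slide 2, and with the slide as a block the limma adjusted p was 0.00642.

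**Figure D2:**
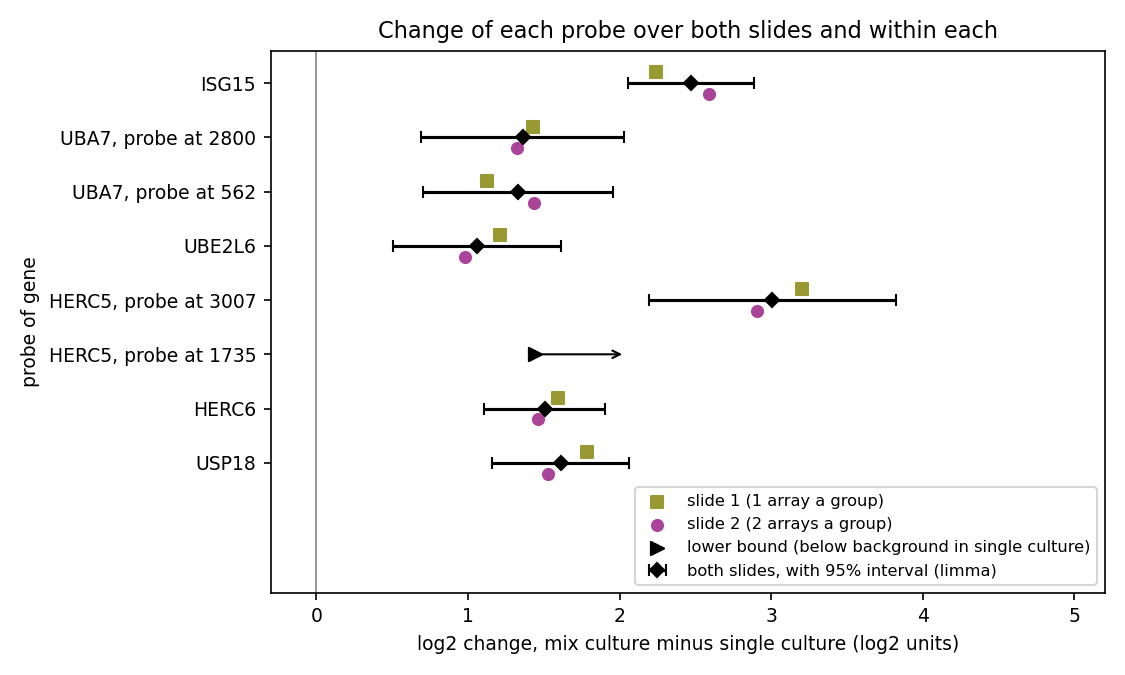
Log2 change of each probe, mix culture minus single culture, over both slides with its 95% interval (diamonds), within slide 1 (squares, 1 array a group) and within slide 2 (circles, 2 arrays a group). Every other probe lies above 0 on both slides, and the HERC5 probe at base 1735 is drawn at its lower bound because single culture was not well above background.

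HERC5, the main ISG15 ligase of human cells, had the largest change of the 6 genes in the reported fit, though not under normexp (2.11 in log2 units, against 2.44 for ISG15). The probe at base 3007 (ENSCAFT00000015560, chr32:11800545-11800604) had intensities of 70.4, 41.3 and 31.4 in single culture and 735, 276 and 268 in mix culture. Replicate 1 was the highest array of both groups, and its slide differs from that of the other arrays. The log2 change was 3.01 (SE 0.35, 95% interval 2.19 to 3.82), or 8.04-fold, with a limma adjusted p of 0.0108. It was 3.20 on slide 1 and 2.91 on slide 2. The call was lost when single culture replicate 2 (adjusted p = 0.0524, limma), single culture replicate 3 (0.0594) or mix culture replicate 3 (0.0583) was left out, while the log2 change stayed between 2.68 and 3.24 over the 6 fits that leave out an array.

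The other HERC5 probe, at base 1735 (chr32:11778367-11784300, across a junction since it spans 5934 bases), did not carry the flag for well above background in single culture, on any of its 3 arrays. It was well above background on all 3 mix culture arrays, with intensities of 25.0, 8.07 and 8.70. In the reported processing the lower bound of its fold was 2.72, and this bound does not carry over to another background correction. The limma adjusted p was 0.00771, but it rests on single culture values that are not well above background and on a filter passed through mix culture alone, so it is no support for the rise. Under normexp, another background correction, the log2 change was 0.24 and the limma adjusted p was 0.852. The bound sets the mix culture mean against the lowest signal called well above background on each single culture array.

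HERC6, the neighbouring gene and the ligase that does this work in mice, was far above background in both groups. Its probe (ENSCAFT00000015531, chr32:11750356-11750415) had intensities of 984, 889 and 1091 in single culture and 3365, 3048 and 2450 in mix culture. The lowest mix culture array was well clear of the highest single culture array, by 1.19 on the normalised log2 scale. The log2 change was 1.51 (SE 0.17, 95% interval 1.11 to 1.91), or 2.84-fold, with a limma adjusted p of 0.0100. It was 1.60 on slide 1 and 1.46 on slide 2. Without single culture replicate 2, mix culture replicate 2 or mix culture replicate 3 the limma adjusted p was 0.0548, 0.0684 or 0.0689.

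The HERC6 probe and the HERC5 probe at base 3007 are alike, as the capitals above show. Aligned over 49 bases, 42 were identical (85.7%), and the longest identical run had 13 bases. Whether RNA of one gene adds to the signal of the other was not tested. The longest run that the HERC5 probe at base 1735 has in common with the HERC6 probe is 5 bases. The remaining HERC genes, which are not known for ISG15, did not pass the test: HERC1, HERC2, HERC3 and HERC4 had log2 changes of -0.24 to 0.05, with the largest for HERC1 (-0.24, SE 0.25, limma adjusted p = 0.904).

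USP18, the protease that removes ISG15, also read higher. Its probe (ENSCAFT00000025792, chr27:45784057-45784411, spanning 355 bases) had intensities of 25.5, 29.3 and 20.8 in single culture and 99.4, 79.5 and 64.3 in mix culture. The mix culture arrays agreed closely after normalisation (SD 0.07, against 0.30 in single culture, n = 3 each). The log2 change was 1.61 (SE 0.19, 95% interval 1.16 to 2.06), or 3.06-fold, with a limma adjusted p of 0.0124. It was 1.78 on slide 1 and 1.53 on slide 2. The call was lost without single culture replicate 3 (limma adjusted p = 0.0860), mix culture replicate 2 (0.0826) or mix culture replicate 3 (0.0720), and under normexp, where the log2 change was 0.66.

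Probes of HERC5, HERC6 and the protease gene USP18 thus read higher in the same arrays. Whether the rises of HERC5 and HERC6 are separate was not tested, and the probes they rest on are alike. Ordered by log2 change, HERC5 came first, followed by ISG15, USP18, HERC6, UBA7 and UBE2L6. This order moved with the background correction: under normexp ISG15 (2.44) came before HERC5 (2.11), HERC6 (1.45), UBA7 (1.34), UBE2L6 (0.97) and USP18 (0.66). The 95% interval of HERC5 overlapped that of ISG15 and lay above those of the other 4 genes. The interval of ISG15 lay above those of HERC6, UBA7 and UBE2L6 and overlapped that of USP18 only at its end, and the last 4 intervals overlapped one another. Differences between the changes of 2 genes were not tested. Since bulk RNA was read, more cells with the transcripts and more transcript per cell cannot be told apart.

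With the slide as a block, 6 of 6 genes were called higher by limma, where 3.98% of all probes were. With the replicate number as a block, all 6 genes were called as well (3.23% of all probes were called higher). In slide 2 alone, with 2 arrays a group, 6 of 6 were called, against 2.41% of probes called higher. Under the methods' t-test 0 of 6 were called after adjustment, and 8 of all 26621 probes were. At an unadjusted p under 0.05, 6 of 6 passed by that test and by limma. Over the array, 2590 of 26621 probes did so by that test and 2318 by limma. For ISG15 the call held in 15 of 16 alternatives. With an array left out, 4 of 6 genes were called without replicate 1 of either culture. The count was 2 without single culture replicate 2, single culture replicate 3 or mix culture replicate 2, and 1 without mix culture replicate 3. In these fits 86 to 242 of the 26621 probes were called.

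**Figure D3:**
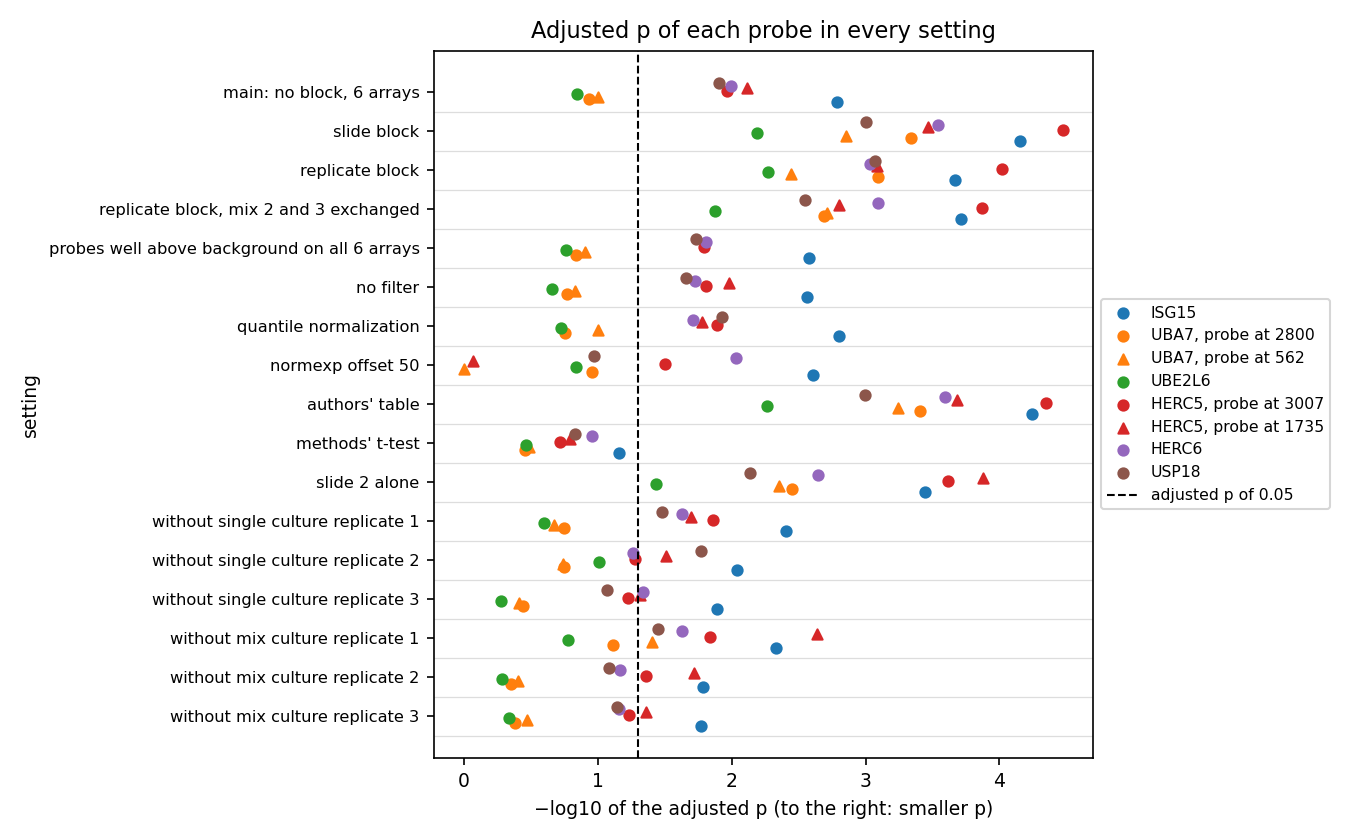
Negative log10 of the adjusted p of each probe (colour for the gene, triangle for its second probe) in the reported fit and 16 alternatives, with a dashed line at an adjusted p of 0.05. ISG15 lies right of the line everywhere but under the methods' t-test, and all probes lie right of it with the slide or the replicate as a block. The HERC5 probe at base 1735 met the filter through mix culture alone, so its place is no support for the rise.

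The genes of the pathway outside the chain were counted on lists, with 1 probe a gene. Of the other enzymes known to attach or remove ISG15, none was called: of TRIM25, ARIH1, USP2, USP5, USP13, USP14 and USP21, 0 of 7 passed the test, 4 lay above 0 and 3 below, and the median log2 change was 0.00. TRIM25, a ubiquitin ligase of RIG-I that can also attach ISG15, had the largest (0.54, SE 0.31, 95% interval -0.20 to 1.28, limma adjusted p = 0.755), and it was called with the slide as a block (0.0339) but not with the replicate number as a block (0.0566). Of the 2 chains of the receptor LFA-1, ITGB2 was tested, with intensities of 6.63 to 8.00 in single culture and 6.74 to 9.84 in mix culture and a log2 change of -0.02 (95% interval -0.39 to 0.35). ITGAL was not well above background on all arrays of either group and was not tested.

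Of 20 proteins reported elsewhere to carry ISG15, 17 had a named probe and were tested. Of these 5 rose, 12 did not pass the test and 0 fell, with a median log2 change of 0.34. The 5 are products of interferon-stimulated genes themselves. IFIT1, which binds viral RNA without the host type of cap, had intensities of 10.9, 13.1 and 11.0 in single culture and 251, 165 and 148 in mix culture, a rise of 3.91 in log2 units (SE 0.19, limma adjusted p = 0.000614). MX1, an antiviral GTPase, had intensities of 1044, 970 and 609 in single culture and 10411, 7130 and 6962 in mix culture, a rise of 3.17 in log2 units (SE 0.21, limma adjusted p = 0.00141).

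The other 3 called substrates were RNA sensors or their partners. IFIT3, a partner of IFIT1, changed by 2.30 on the log2 scale (SE 0.28, limma adjusted p = 0.0142). DDX58, the sensor RIG-I, changed by 2.22 (SE 0.24, limma adjusted p = 0.00894), and IFIH1, the sensor MDA5, by 1.44 (SE 0.14, limma adjusted p = 0.00550). Without single culture replicate 3, these 3 genes were no longer called (limma adjusted p of 0.0966, 0.0601 and 0.0529), nor without mix culture replicate 3 (0.0905, 0.0622 and 0.0512), which left IFIT1 and MX1. DDX58 was also lost without mix culture replicate 2 (0.0596). Among the substrates that were not called, EIF4E2, a cap-binding protein, had a log2 change of -0.48 and PCNA, the clamp of DNA replication, of 0.35. EIF2AK2, the kinase PKR, stood 0.95 higher in log2 units (SE 0.16, limma adjusted p = 0.0559), and was called with the slide (0.00329) or the replicate number (0.00745) as a block.

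Of the receptor, kinases and factors of type I interferon signalling, 4 of 7 had a named probe and 0 passed the test. STAT2, a subunit of the transcription factor ISGF3 that interferon activates, had a log2 change of 0.66 (SE 0.20, 95% interval 0.20 to 1.13), and its limma adjusted p was 0.323. With the slide as a block STAT2 was called (adjusted p = 0.00695, limma), as it was with the replicate number as a block (0.0179).

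The parallel chains for ubiquitin and its other relatives did not pass the test for any gene. Of 11 modifiers, among them UBB and NEDD8, 0 were called, the median log2 change was -0.13, and the largest was that of ATG12, the modifier of autophagy (0.25, SE 0.17, limma adjusted p = 0.792). Of 9 other E1 genes 0 were called, with a median of -0.04 and the largest for UBA1, the E1 of ubiquitin (-0.24, SE 0.32, limma adjusted p = 0.942). Of 28 other UBE2 genes 0 were called, with a median of -0.15, 22 below 0 and the largest for UBE2Q2 (-0.49, SE 0.15, limma adjusted p = 0.320). UBE2L3, the nearest relative of UBE2L6, had a log2 change of -0.14 (95% interval -0.68 to 0.40).

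Of 43 other USP proteases 0 were called, with a median of 0.02 and log2 changes from -0.46 to 0.71. The largest was that of USP49 (SE 0.23, limma adjusted p = 0.402), whose signal was close to background, well above it on 1 of 3 single culture arrays and all 3 mix culture arrays. With the slide as a block USP49 and UBE2Q2 were called (limma adjusted p = 0.00611 and 0.0292). With the replicate number as a block USP49 was called (0.0148) and UBE2Q2 was not (0.0596). USP49 met the filter through mix culture alone, so its calls are a description. Over all related lists 116 genes were tested, of which 5 were called (0.864% of all gene names and identifiers tested were, in either direction). With the slide as a block 11 were called, USP49 among them (7.2% of all probes).

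**Figure D4:**
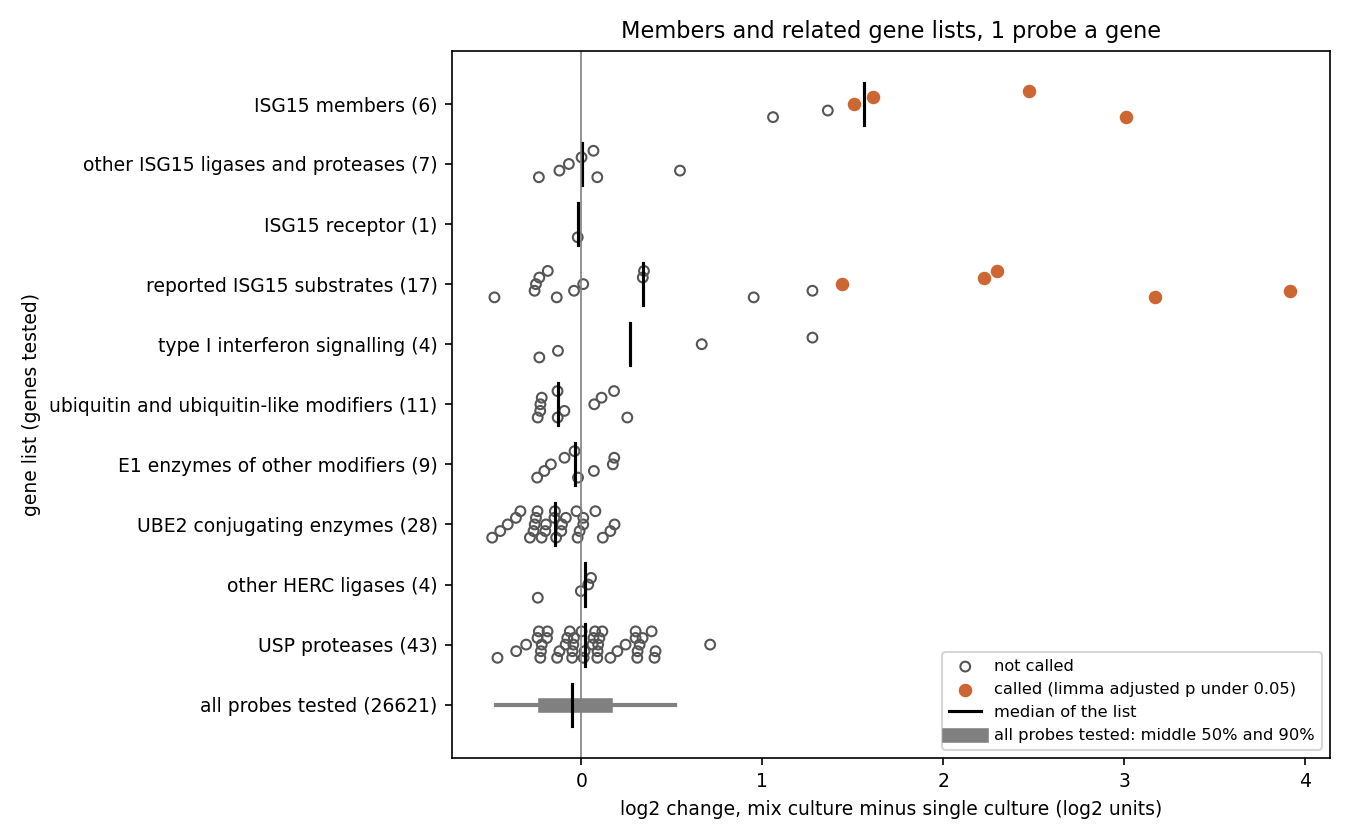
Log2 change, mix culture minus single culture, of each gene tested on 10 lists (1 probe a gene), filled where limma's adjusted p was under 0.05, with a line at each list's median and, at the foot, the middle 50% and 90% of all 26621 probes tested. The members all lie above 1, 5 of the reported substrates are called, and the other modifier chains centre near 0. Some genes, such as JAK1 and UBE2E1, stand on 2 lists.

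Apart from the probe DR108024, no gene tested beside a member on the chromosome passed the test. Named genes were tested beside UBA7 and HERC5 only, so nothing is said of the other members. Of the named genes with a probe within 10000 bases of a member's probe, TRAIP (0.04 and -0.12 on its 2 probes) and FAM212A (-0.09) lie beside UBA7, and PIGY (0.14) beside HERC5. Their 95% intervals ran from -0.61 to 0.70 and from -0.72 to 0.48 for TRAIP, from -0.74 to 0.56 for FAM212A and from -0.22 to 0.50 for PIGY. SMTNL1, beside UBE2L6, was not well above background on any array. This distance was chosen after the values were seen.

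Correlations between the member probes over the 6 arrays are a description, since all 8 probes had already been seen to read higher in mix culture. After the mean of each slide was removed, the Pearson correlation between the normalised log2 signals of any 2 of the 8 probes lay between 0.93 and 0.996 (n = 6 arrays). These values share the difference between the groups and show no likeness beyond it. They include the HERC5 probe at base 1735, which met the filter through mix culture alone. With the group means removed in place of the slide's, the correlations ran from -0.85 to 0.88. Among 9300 named genes that are no members, ZNF394, EWSR1, NR4A1, WDR44 and APOBEC1 had the pattern most like that of ISG15, with correlations of 0.998 to 0.999. The size of their changes differed widely: in log2 units it was 3.41 (SE 0.21) for APOBEC1, an RNA-editing enzyme, and 1.98 (SE 0.32) for NR4A1, a nuclear receptor of early response, with limma adjusted p of 0.00101 and 0.0496. ZNF394, EWSR1 and WDR44 had 0.21, 0.25 and 0.30 and did not pass the test.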

How the data were processed

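RNA of sorted GFP-positive MDCK cells was labelled with Cy3 and hybridised to single-colour Agilent Canine V2 4x44K arrays, 3 of single culture and 3 of mix culture, grouped by sample title. For every array the authors deposited its scanner output, in which a spot has an intensity that was background-subtracted within the array by Agilent Feature Extraction (11.5.1.1 on slide 1, 12.1.1.1 on slide 2) and not scaled between arrays. Flags of well above background came from the same deposited files. The authors also deposited a log2 table, centred on 0 for each array and with its other steps not given in the sources used here. Its mix culture columns 2 and 3 matched the scanner files of the other replicate (correlations of 0.999 and 0.993, against 0.457 and 0.459 with their own), which moves no group mean.

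From the scanner files, spots with outlier flags were dropped (5 to 9 per array, 0 saturated), spots of 1 probe averaged, and each array's 75th percentile (161 to 233 units) subtracted from log2 of the background-subtracted signal. A probe was tested when well above background on all arrays of at least 1 group (26621 probes). The test was limma (version 3.58.1, R 4.3.3), two-sided, by lmFit followed by eBayes. P-values were adjusted over these probes by Benjamini-Hochberg, and under 0.05 a probe or gene was called. An adjusted p is from this limma fit, or from limma under a stated alternative, unless the methods' t-test is named. Errors are SDs over 3 arrays unless called SE. The number of arrays limits the precision. For a gene with several probes, the brightest over all arrays entered counts. A probe below background in a whole group has a lower bound of its fold, set against the mean, per array, of the higher of its own signal and the lowest signal well above background. The fit was tested on simulated data.

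The members and lists were chosen with earlier results of these data known, so nothing here is independent support for them. Named genes were all members, the called genes of each list or else the 1 with the largest change, the 5 genes nearest to ISG15 in pattern, HRAS and CTNNB1. A gene that this rule selects is not reported here. STAT2, EIF2AK2, UBE2L3, EIF4E2, PCNA and neighbouring genes were added after their values were seen. Symbols are the design's, from its gene name for 20473 probes and its description for 1042, and 22088 probes carry an identifier only. All 6 members were found in a RefSeq table of assembly UU_Cfam_GSD_1.0, used for names alone. Positions are the design's, on CanFam3.1, where exon and UTR annotation was not used. Same-numbered arrays deviated together from their group means (correlations 0.801, 0.530 and 0.572), but arrays of slide 2 with different numbers did so as much (0.610 and 0.632). The reported fit pairs no arrays, and the replicate number entered only as a block in alternative fits.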

Additional observations from a re-analysis of the deposited data

How the results depend on the processing

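Every member kept its direction in all 16 alternatives tried, as did each member probe in those that tested it. With the slide as a block, the replicate block, and that block with mix culture replicates 2 and 3 exchanged, the calls over the array numbered 1917, 1399 and 1447 in place of 235, and those on the related lists 11, 9 and 10 in place of 5. UBA7 (log2 change 1.36) and UBE2L6 (1.06) became called in these 3 fits, in the authors' table (1.38 and 1.06) and in slide 2 alone (1.33 and 0.98), and the blocks ended no call of a member. The authors' table, whose probes are centred within slides, gave 4077 calls over the array and 17 on the lists. It was fitted without a term for the slide, so its p-values may be too small. Slide 2 alone gave 983 calls over the array and 9 on the lists. Requiring all 6 arrays above background left 143 calls over the array. Normexp with an offset of 50 left 101, USP18 (0.66) was no longer called, and HERC5 fell from 3.01 to 2.11. The methods' t-test, unpaired with equal variance, called 8 probes over the array (2590 at an unadjusted p under 0.05, against 2318 by limma), 1 gene on the lists and 0 members. The changes themselves are the same in that test, 2.47 for ISG15, 3.01 for HERC5, 1.51 for HERC6 and 1.61 for USP18, with adjusted p of 0.0697, 0.190, 0.111 and 0.147. The cause of these shifts was not tested.

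With each array left out in turn, 86 to 242 probes were called over the array, 1 to 4 of 6 members, and 2 to 5 genes on the lists. The array total fell to 94, 92 and 86 without single culture replicate 3, mix culture replicate 2 and mix culture replicate 3. The log2 changes ran from 2.35 to 2.54 for ISG15, 1.12 to 1.57 for UBA7, 0.88 to 1.28 for UBE2L6, 2.68 to 3.24 for HERC5, 1.41 to 1.62 for HERC6 and 1.51 to 1.79 for USP18. The promoter motifs that had been planned were not run, since no promoter sequence was used here. With 3 arrays a group and 2 slides, the slide and the scan settings that go with it cannot be told apart, and the dim probes of HERC5 at base 1735 and UBA7 at base 562 are the ones that background correction moves most.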
